A study of Bos taurus with 12 samples.

Results

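Heat shock proteins and J-domain cochaperones are the chaperones of the cytosol, nucleus, mitochondria and endoplasmic reticulum (ER) whose bovine symbols begin with HSPA to HSPH, HSP90, HSPB or DNAJA, DNAJB and DNAJC. They were selected by symbol from a table of raw read counts per gene, and 69 of its 29240 named genes qualified. HSPA5, HSP90B1, HSPG2, HSPBP1 and HSPBAP1 were left out by the same rule. The rule itself uses symbols and no measured value, and the gene group was proposed with earlier results of these data known. The genes were followed in precursor adipocytes of cattle (Bos taurus), the fibroblast-like cells that can become fat cells, 48 h after transfection, in 12 libraries of 4 groups with 3 libraries each. The si group is the treated arm of an interference assay for which the labels give no target gene, and si_NC is its negative control. The OE group received pcDNA3.1-HGFAC, a plasmid carrying the coding region of HGFAC, the secreted protease that activates hepatocyte growth factor, and OE_NC received the pcDNA3.1-NC control plasmid. All 4 groups had therefore been transfected, and the labels give no untransfected cells, breed, donor or passage.

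HSP90 and HSP70 proteins are ATP-driven chaperones that bind unfolded or immature client proteins. J-domain proteins (DNAJA, DNAJB and DNAJC) bring clients to HSP70 and start its ATP hydrolysis, HSP110 proteins release the bound nucleotide again, and small heat shock proteins hold unfolding proteins without using ATP. A part of each family is made at all times, and another part is switched on by heat shock factor HSF1 when unfolded proteins accumulate.

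Counts assigned to named genes summed to between 28.9 and 42.7 M per library. HGFAC stood at 138 to 190 counts per M counts (CPM) in OE libraries and 0.273 to 0.526 CPM in OE_NC libraries (log2 change 8.67 ± 0.19 SE, edgeR adjusted p = 4.31e-13). In the interference assay HGFAC was at 0.525 to 0.843 CPM in si libraries and 0.738 to 0.935 CPM in si_NC libraries (log2 difference −0.35 ± 0.27 SE, edgeR adjusted p = 0.512). The stromal markers VIM and COL1A2 averaged 5940 and 7200 CPM. The other stromal markers examined averaged less, with CD44 at 382, PDGFRA at 275, PDGFRB at 109 and THY1 at 15.9 CPM. ADIPOQ of mature fat cells, PTPRC of immune cells, EPCAM of epithelium and MYOD1 of muscle averaged under 0.1 CPM. Other markers of these types averaged more, with LPL at 15.9, FABP4 at 7.10 and PLIN1 at 1.41 CPM for fat cells. CD68 of immune cells averaged 4.40 CPM, KRT19 of epithelium 1.90 CPM, and DES, also a muscle marker, was at 569 CPM. The stromal marker THY1 rose in si (log2 change 0.66, edgeR adjusted p = 0.0263). Between the controls, THY1 and LPL were higher in OE_NC (log2 change 1.17 and 0.37, edgeR adjusted p = 0.000151 and 0.0188). The share of counts on mitochondrial genes was 2.01 to 2.26 percent in si, against 1.58 to 1.70 percent in si_NC, and 1.31 to 1.37 percent in OE, against 1.72 to 1.80 percent in OE_NC. The part of this in the results below was not tested. In a principal component analysis of all tested genes, si library 3 and si_NC library 2 stood apart from the other libraries of their groups. They lay at −24.6 and −22.3 on the second component against 12.2 to 17.7, and the OE libraries lay there too, at −24.6 to −21.2. On the first component si library 3 was at −25.2, near the si_NC libraries at −36.1 to −26.0, against −3.84 and −6.51 for si libraries 1 and 2. What set si library 3 and si_NC library 2 apart was not tested. The log2 differences of the members described in the interference assay are given with and without both. The labels do not say that the replicates came from separate cultures, so p-values measure the spread between these libraries, which may be technical. In bulk RNA, fewer cells of a type and less RNA per cell cannot be told apart.

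The transcript pool of the members was dominated by the cytosolic HSP90 genes and HSPA8. On the per-length scale of RPKM (reads per kilobase of exon and per M counts, the authors' deposited unit), HSP90AB1 averaged 2470 and HSP90AA1 2431 over the 12 libraries, followed by HSPA8, the constitutive cytosolic HSP70, at 905. These 3 genes held 62.5 percent of the summed RPKM of all 69 members. All members together took 2.36 to 2.42 percent of counts in si, 2.18 to 2.57 percent in si_NC, 2.22 to 2.30 percent in OE and 2.23 to 2.50 percent in OE_NC. The ranges of si and si_NC overlapped, and so did those of OE and OE_NC. Across the assays, every si library lay above every OE library.

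Below them came compartment-specific chaperones and J proteins. HSPA9, the HSP70 of the mitochondrial matrix, averaged 383 RPKM. HSPD1 and HSPE1, which form the mitochondrial folding chamber, averaged 211 and 156 RPKM and lie on chromosome 2 on opposite strands, 152 bases apart in the coordinates of the count table. HSPA1A, the member best known for heat induction, was at 170 RPKM without any labelled heat treatment. Among J proteins, DNAJC8, which is found with spliceosomes, averaged 455 RPKM, and DNAJC21, a factor in maturation of the large ribosomal subunit, averaged 302 RPKM. The cytosolic class A proteins DNAJA1 and DNAJA2 averaged 215 and 156 RPKM. DNAJB11, a cochaperone of the ER lumen, and DNAJB12, anchored in the ER membrane, led class B with 130 and 48.7 RPKM. The nucleotide exchange factor HSPH1, the sole member filed under HSP110 by symbol, averaged 37.6 RPKM, and the leading small heat shock genes HSPB1 and HSPB6 averaged 133 and 24.6 RPKM.

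**Figure D1:**
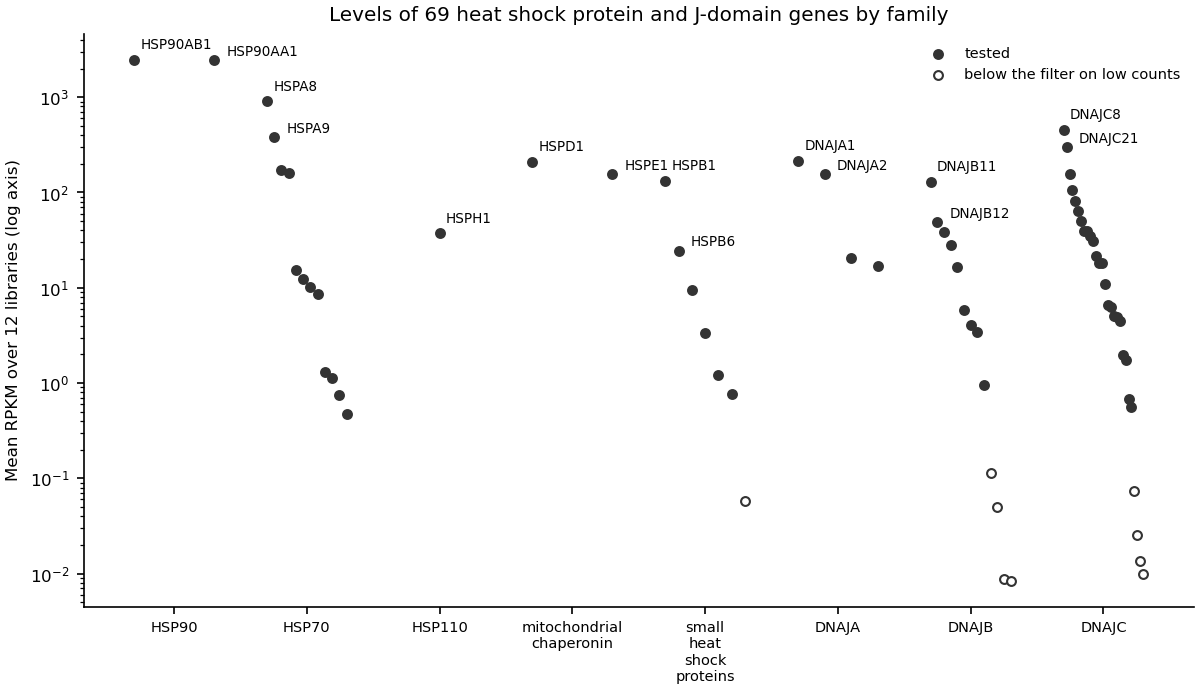
Mean RPKM over the 12 libraries on a log axis for each of the 69 genes, by family, with filled points for the 60 tested genes and open points for the 9 below the count filter. HSP90AB1 at 2470 and HSP90AA1 at 2431 RPKM lie above every other member, and the lowest members, at under 0.01 RPKM, belong to DNAJB and DNAJC.

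The spread within families was wide. Family medians were 88.1 RPKM for DNAJA, 14.5 for DNAJC, 11.2 for HSP70, 4.04 for DNAJB and 3.33 for small heat shock proteins, and the lowest member averaged 0.00846 RPKM. The heat-inducible HSPA6 averaged 0.468 RPKM. A filter on low counts (at least 10 reads in enough libraries and 15 in all) kept 60 members. The other 9 (DNAJB3, DNAJB7, DNAJB8, DNAJB13, DNAJC5B, DNAJC5G, DNAJC6, DNAJC22 and HSPB9) had at most 12 reads in any library and are given by name only.

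In the interference assay, 7 of the 60 tested members differed between si and si_NC at an adjusted p under 0.05 in edgeR's quasi-likelihood test with Benjamini-Hochberg adjustment over all 16300 tested genes, against 2.54 percent of all tested genes. HSP90AA1 rose, 1 member against 0.92 percent of all tested genes. HSP90AB1, HSPA1A, DNAJA1, DNAJC1, DNAJC13 and DNAJC21 fell, 6 members against 1.62 percent. The largest called change was −0.50 on the log2 scale, in DNAJC21. The median log2 difference was −0.062 over the members and 0.025 over all tested genes. At an unadjusted p under 0.05 there were 24 members (40 percent), against 18.9 percent of all tested genes. In 16 members all si libraries lay below all si_NC libraries, against 10.6 percent of all tested genes, and in 2 they lay above, against 10.2 percent. With a stricter filter of at least 5 CPM in 3 libraries, 6 of 52 tested members were called, against 5.1 percent of all tested genes.

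The number of calls depended on single libraries, for the members as for all genes. It was 0 without si library 1 and 0 without si library 2, where 20 and 19 members had an unadjusted p under 0.05 in edgeR, and 1 without si_NC library 1 and 2 without si_NC library 3. In these 4 fits 0.334 to 0.804 percent of all tested genes were called. It was 15 without si_NC library 2 and 9 without si library 3, against 6.45 and 4.09 percent of all tested genes. The called members kept their direction in each of the 6 fits that left out a library. HSP90AA1, HSPA1A and DNAJC1 were each called in 3 of these fits. DNAJA1, DNAJC13 and DNAJC21 were each called in 2, and HSP90AB1 in 1. Their log2 changes ran over −0.34 to −0.31 for DNAJC13, −0.35 to −0.27 for DNAJA1, −0.38 to −0.28 for DNAJC1 and −0.40 to −0.30 for HSPA1A. The range was wider for DNAJC21 (−0.64 to −0.43), HSP90AB1 (−0.47 to −0.26) and HSP90AA1 (0.28 to 0.46). Without both libraries that stood apart, a setting chosen after seeing the data, 14 members fell and 0 rose, against 4.21 percent of all tested genes that fell and 2.49 percent that rose. Of the 7 calls, 6 were shared, HSP90AA1 being the exception. Their log2 changes in that setting were −0.60 for DNAJC21, −0.45 for HSP90AB1, −0.39 for DNAJA1, −0.36 for HSPA1A, −0.33 for DNAJC13 and −0.32 for DNAJC1, with edgeR adjusted p-values of 0.00115 to 0.0253. The newly called genes were DNAJB11, DNAJC2, DNAJC3, DNAJC10, DNAJC11, DNAJC25, HSPD1 and HSPH1. With library totals in place of trimmed-mean scaling, 1 member rose and 1 fell, against 1.83 and 0.65 percent of all tested genes.

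The cytosolic HSP90 genes moved in opposite directions. HSP90AA1, the inducible form (chromosome 21, 66939612 to 66944979, minus strand, 3041 exon bases, in the count table's coordinates, whose build is not named), had 7905, 7975 and 8218 CPM in si libraries 1 to 3, against 7061, 5602 and 6065 CPM in si_NC libraries 1 to 3. Every si library lay above every si_NC library. The means were 8033 ± 164 CPM in si and 6243 ± 745 CPM in si_NC (SD, n = 3 each), a log2 change of 0.36 ± 0.08 SE with an edgeR adjusted p of 0.0273. Without both libraries that stood apart the change was 0.27 with an edgeR adjusted p of 0.0575.

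HSP90AB1, the constitutive form (chromosome 23, 17752495 to 17758156, plus strand, 2526 exon bases), had 6102, 5947 and 5722 CPM in si, against 8710, 6552 and 7608 CPM in si_NC. The groups did not overlap, with the narrowest gap at si_NC library 2. The mean was 5924 ± 191 CPM in si and 7623 ± 1079 CPM in si_NC (SD, n = 3 each), and the log2 change was −0.36 ± 0.09 SE with an edgeR adjusted p of 0.0434. Because the genes moved in opposite directions, the HSP90 pair as a whole took 1.41 to 1.43 percent of counts in si and 1.19 to 1.496 percent in si_NC. These ranges overlapped.

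The ratio of HSP90AA1 to HSP90AB1 within a library does not depend on scaling between libraries. On RPKM it was 1.08, 1.11 and 1.19 in si, against 0.673, 0.710 and 0.662 in si_NC. In the overexpression assay it was 1.13, 1.13 and 1.10 in OE, against 1.06, 1.10 and 1.10 in OE_NC. HSP90AA1 thus exceeded HSP90AB1 in 9 libraries and was the lower of the pair in the 3 si_NC libraries only. The log2 ratio was higher by 0.73 in si than in si_NC, a description without a test since the pair was picked with this contrast known, and by 0.047 in OE than in OE_NC (exact permutation test, two-sided, p = 0.1, the smallest p that 3 against 3 libraries allow). Leaving out each library gave 0.68 to 0.76 for si and 0.027 to 0.059 for OE. The HSP90 genes are similar in sequence, and how reads mapping to several genes were counted is not given in the sources used here.

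**Figure D2:**
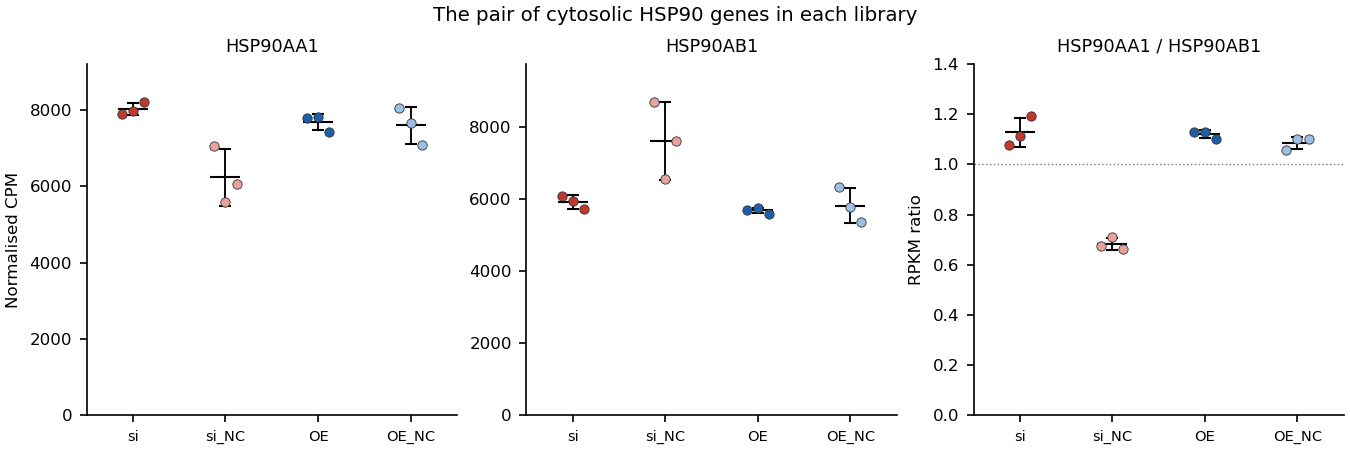
Normalised CPM of HSP90AA1 and HSP90AB1 and the ratio of their RPKM in each of the 12 libraries (points), with group mean and SD (bars) and a dotted line at a ratio of 1. The si_NC libraries lie at 0.662 to 0.710 and the other 9 libraries at 1.06 to 1.19.

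Of the HSP70 family, 1 of 12 tested members changed. HSPA1A (chromosome 23, 27520317 to 27522790, minus strand, 2474 exon bases), a major stress-inducible HSP70, had 401, 373 and 436 CPM in si, against 510, 547 and 476 CPM in si_NC. All si libraries were lower. Its log2 change was −0.34 ± 0.07 SE with an edgeR adjusted p of 0.028. HSPA1A is similar in sequence to other HSP70 genes and lies 8 bases from HSPA1L on the opposite strand, so its counts may hold reads of related genes. The symbol HSPA1B was in neither the count table nor the RefSeq gene names used. The more abundant HSPA8, the housekeeping HSP70, had 2224, 2179 and 1914 CPM in si, against 2362, 2058 and 2497 CPM in si_NC, with overlapping groups (log2 difference −0.13, edgeR adjusted p = 0.448). HSPA9 differed by 0.10 (edgeR adjusted p = 0.416). The differences were −0.15 for HSPA8 and 0.0046 for HSPA9 without both libraries that stood apart (edgeR adjusted p = 0.281 and 0.975).

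HSP110-type exchange factors free HSP70 from its nucleotide. HSPH1, HSPA4 and HSPA4L had negative differences of −0.20, −0.13 and −0.46 on the log2 scale, and 0 of the 3 were called by edgeR. At an unadjusted p under 0.05 there were 2, and DESeq2's Wald test called 1. HSPH1 was at 142, 144 and 146 CPM in si, against 182, 151 and 165 CPM in si_NC. Leaving out both libraries that stood apart gave −0.28 for HSPH1, −0.17 for HSPA4 and −0.49 for HSPA4L (edgeR adjusted p = 0.0325, 0.122 and 0.107).

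J proteins made up 4 of the 6 falls and 61.7 percent of the tested members (37 of 60). DNAJC21 (chromosome 20, 39187820 to 39214684, minus strand) had 496, 517 and 466 CPM in si, against 767, 567 and 764 CPM in si_NC. It had the largest called change of the members in this contrast, −0.50 ± 0.10 SE on the log2 scale with an edgeR adjusted p of 0.0196, and its si libraries lay below the other 9 libraries. Another ribosome-associated J protein, DNAJC2, which recruits HSP70 to nascent chains, had 336, 352 and 323 CPM in si, against 477, 371 and 429 CPM in si_NC. Its difference of −0.34 missed the threshold (edgeR adjusted p = 0.0601), and without both libraries that stood apart it was −0.41 (edgeR adjusted p = 0.0132). All 4 J proteins of ribosomes and spliceosomes (DNAJC2, DNAJC8, DNAJC17 and DNAJC21) had negative differences, with a median of −0.29, and 1 was called.

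DNAJA1, a farnesylated cytosolic partner of HSP70 (chromosome 8, 74790616 to 74800322, plus strand), had 289, 301 and 321 CPM in si, against 395, 360 and 372 CPM in si_NC. The groups did not overlap, and the log2 change was −0.31 ± 0.07 SE (edgeR adjusted p = 0.03). DNAJA2, its close relative, was at 255, 265 and 249 CPM in si, against 285, 283 and 309 CPM in si_NC, a difference of −0.19 with an edgeR adjusted p of 0.208, and of −0.20 without both libraries that stood apart.

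DNAJC13 (chromosome 1, 137051554 to 137215359, minus strand, 7811 exon bases) works with HSP70 on endosomes in the sorting of membrane cargo. It had 115, 118 and 120 CPM in si, against 144, 149 and 149 CPM in si_NC. Both groups were tight, and the log2 change was −0.32 ± 0.07 SE (edgeR adjusted p = 0.0248).

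DNAJC1 (chromosome 13, 22968670 to 23148828, minus strand) is a J protein of the ER membrane. It had 65.1, 64.2 and 65.6 CPM in si, against 84.8, 82.7 and 75.5 CPM in si_NC. The si libraries were all lower, with a log2 change of −0.32 ± 0.07 SE (edgeR adjusted p = 0.0254).

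Of the 7 ER J proteins, DNAJC1 was called, against 1.62 percent of all tested genes that fell. In 5 the differences were negative, with a median of −0.24 over the 7, against 0.025 over all tested genes. DNAJC3, which dampens the translation-blocking kinases and serves as an ER cochaperone, had 125, 126 and 151 CPM in si, against 166, 163 and 157 CPM in si_NC (log2 difference −0.27, edgeR adjusted p = 0.0739). DNAJB11 had 266, 270 and 302 CPM in si, against 346, 312 and 334 CPM in si_NC (log2 difference −0.24, edgeR adjusted p = 0.0964). DNAJC10, an ER disulfide reductase, differed by −0.24 (edgeR adjusted p = 0.12). Each of these 3 was at its highest si value in library 3, which stood apart. Without it and si_NC library 2 the differences were −0.37 for DNAJC3, −0.35 for DNAJB11 and −0.31 for DNAJC10 (edgeR adjusted p = 0.00803, 0.0143 and 0.0214).

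Of the 6 tested small heat shock genes, 0 were called by edgeR, 0 were called by DESeq2 and 2 had an unadjusted p under 0.05. Their differences were all positive (median 0.14, range 0.050 to 0.53), as were 54 percent of those of all tested genes. HSPB1, the most abundant, had 147, 140 and 114 CPM in si, against 108, 112 and 121 CPM in si_NC. HSPB6 had 35.2 to 60.4 CPM in si, against 22.8 to 39.2 CPM in si_NC. Both genes overlapped between the groups. Their differences were 0.31 and 0.45 without both libraries that stood apart (edgeR adjusted p = 0.0936 and 0.0543), against 0.23 and 0.53 with them. Of the 9 mitochondrial chaperones and J proteins, 0 were called by edgeR, 3 had an unadjusted p under 0.05 and 0 were called by DESeq2. HSPD1 had 588, 617 and 653 CPM in si, against 776, 611 and 729 CPM in si_NC. Its difference was −0.19, and −0.33 without both libraries that stood apart (edgeR adjusted p = 0.00852).

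**Figure D3:**
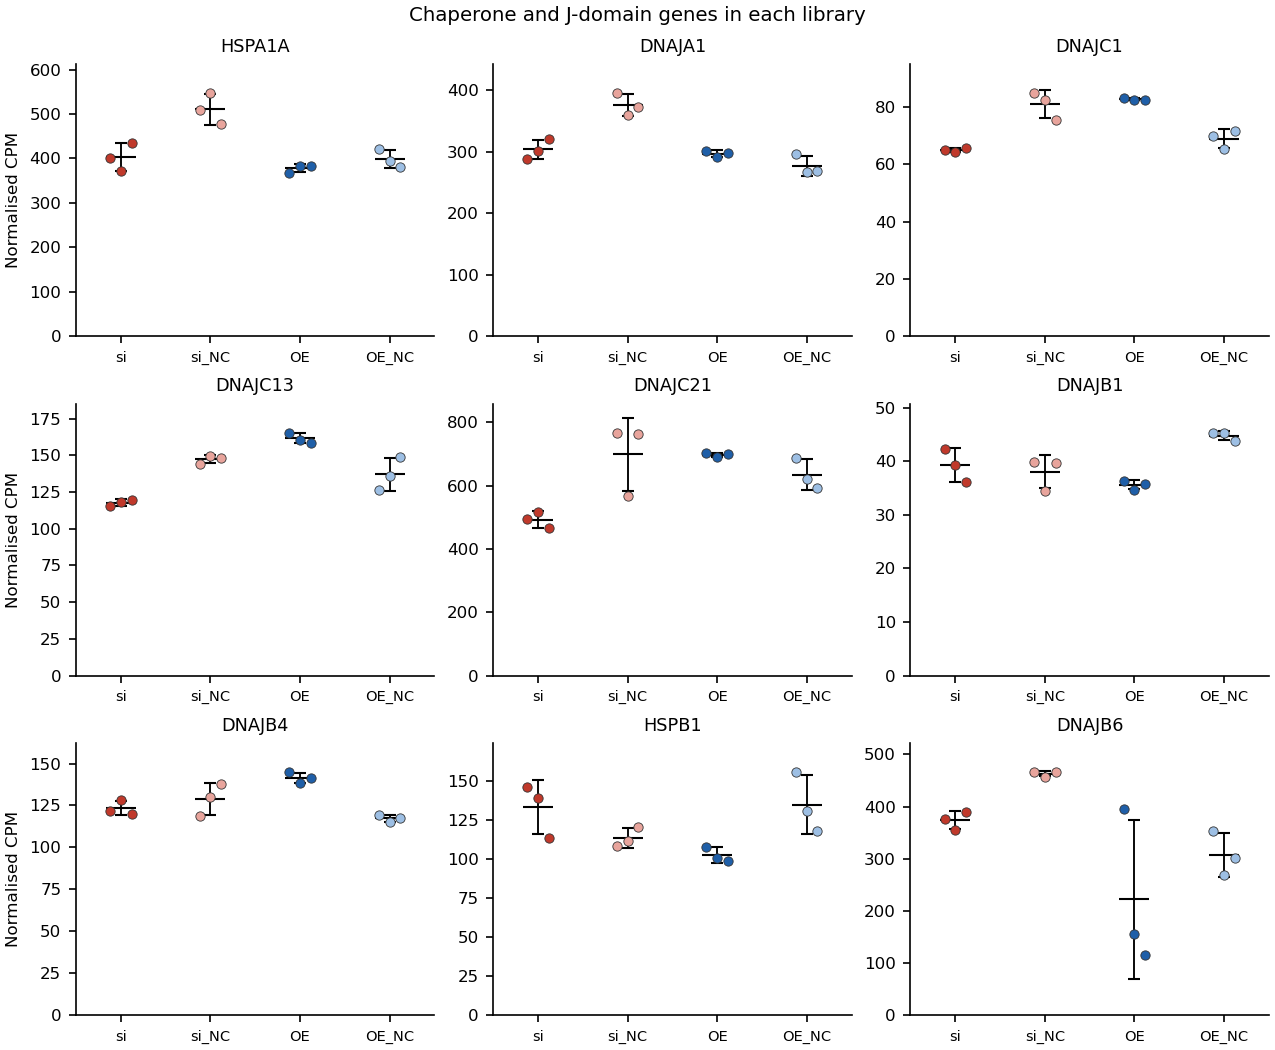
Normalised CPM of HSPA1A, DNAJA1, DNAJC1, DNAJC13, DNAJC21, DNAJB1, DNAJB4, HSPB1 and DNAJB6 in each library (points) with group mean and SD (bars), each panel with its own axis from 0. DNAJC13 lies at 115 to 120 CPM in si, against 144 to 149 CPM in si_NC, and DNAJB6 in OE runs from 115 to 396 CPM.

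In the overexpression assay, 4 of 60 tested members differed between OE and OE_NC, against 4.47 percent of all tested genes. DNAJB4 and DNAJC1 rose, against 2.22 percent of all tested genes that rose, and DNAJB1 and HSPB1 fell, against 2.25 percent that fell. The median log2 difference was 0.029 over the members and −0.0046 over all tested genes, and the median absolute difference was 0.10 against 0.19. At an unadjusted p under 0.05 there were 12 members (20 percent), against 22.9 percent of all tested genes. All OE libraries lay above all OE_NC libraries in 11 members and below in 10, against 17.4 and 16 percent of all tested genes. These shares were close to the background.

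Here too the number of calls depended on single libraries, for the members as for all genes. The count was 0 without OE library 2, OE library 3, OE_NC library 1 or OE_NC library 2, with 9 to 12 members at an unadjusted p under 0.05 in edgeR, 1 without OE library 1, and 4 without OE_NC library 3. The share of all tested genes called was 0.113 to 0.269 percent in the 4 fits with a count of 0, 1.34 percent without OE library 1 and 4.54 percent without OE_NC library 3. The call without OE library 1 was DNAJB6. Of the members called with all libraries, DNAJB1 and HSPB1 were each called in 1 of the 6 fits. DNAJB4 and DNAJC1 were called in 0 (lowest edgeR adjusted p = 0.0814 and 0.0595). These 4 members kept their direction in each of these fits, with log2 changes of −0.37 to −0.32 for DNAJB1, 0.24 to 0.28 for DNAJB4, 0.22 to 0.27 for DNAJC1 and −0.50 to −0.29 for HSPB1. With library totals as the scaling, 0 members rose and 3 fell, against 0.975 and 4.01 percent of all tested genes. Correcting each library for its dependence on exon length (a length offset) gave 2 rises, DNAJB12 and DNAJC1, and 0 falls, against 2.44 and 0.896 percent of all tested genes.

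The calls held cytosolic class B J proteins in both directions. DNAJB1 (chromosome 7, 11260191 to 11273084, plus strand), the main stress-inducible J protein and partner of HSPA1A, had 36.3, 34.7 and 35.8 CPM in OE, against 45.3, 45.3 and 43.8 CPM in OE_NC. The groups were far apart relative to their spread. The log2 change was −0.33 ± 0.08 SE with an edgeR adjusted p of 0.0375. DNAJB1 had 42.3, 39.3 and 36.1 CPM in si, against 39.9, 34.5 and 39.7 CPM in si_NC. The OE libraries thus lay at the level of the lower interference libraries, and the OE_NC libraries above the other 9.

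DNAJB4 (chromosome 3, 66661333 to 66707375, minus strand), a close relative of DNAJB1, had 145, 138 and 141 CPM in OE, against 119, 115 and 117 CPM in OE_NC. All OE libraries were higher than the other 9 libraries, by a narrow margin over si_NC library 3 at 138 CPM. The log2 change was 0.27 ± 0.07 SE with an edgeR adjusted p of 0.0411. With the length offset it was 0.23 with an adjusted p of 0.0796. Beside it, the muscle marker DES also rose in OE (log2 change 0.42, edgeR adjusted p = 0.0399), while MYOD1 stayed under 0.1 CPM on average. The part of DES-expressing cells in the DNAJB4 result was not tested.

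DNAJC1 had 83.3, 82.6 and 82.5 CPM in OE, against 69.8, 65.3 and 71.7 CPM in OE_NC. It rose by 0.26 ± 0.07 SE on the log2 scale (edgeR adjusted p = 0.0424). Of the 7 ER J proteins, 1 was called and 6 missed the threshold, against 2.22 percent of all tested genes that rose. Their differences were all positive (median 0.16), as were 49.3 percent of those of all tested genes. In 4 of them every OE library was above every OE_NC library, against 17.4 percent of all tested genes. DNAJC3 had 138, 127 and 131 CPM in OE, against 118, 112 and 114 CPM in OE_NC, a difference of 0.20 (edgeR adjusted p = 0.133). DNAJB12 had 62.6, 68.8 and 63.7 CPM in OE, against 54.3, 53.5 and 57.3 CPM in OE_NC, a difference of 0.24 (edgeR adjusted p = 0.0648) and, with the length offset, of 0.44 (adjusted p = 0.0109). The endosomal DNAJC13 had 165, 161 and 159 CPM in OE, against 126, 136 and 149 CPM in OE_NC, a difference of 0.24 (edgeR adjusted p = 0.0601).

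HSPB1 (chromosome 25, 34345286 to 34347010, plus strand, 909 exon bases), an actin-associated small heat shock protein, had 108, 101 and 98.8 CPM in OE, against 156, 131 and 118 CPM in OE_NC. Every OE library was lower, and the OE_NC libraries were widely spread. The log2 change was −0.40 ± 0.11 SE with an edgeR adjusted p of 0.0482. With the length offset it was −0.13 with an adjusted p of 0.342. HSPE1, another short gene (479 exon bases), had 58.1, 62.6 and 57.0 CPM in OE, against 90.7, 75.5 and 69.1 CPM in OE_NC. Its difference of −0.40 had an edgeR adjusted p of 0.0506, and with the length offset it was −0.054. Its counts amounted to 11.1, 12.0 and 11.0 percent of those of its partner HSPD1 in OE, against 16.5, 14.4 and 12.9 percent in OE_NC. The lowly expressed HSPB2 was at 0.333, 0.228 and 0.0616 CPM in OE, against 0.736, 0.986 and 0.553 CPM in OE_NC (log2 difference −1.84, edgeR adjusted p = 0.076).

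Of the HSP90 pair 0 were called in OE by edgeR, 0 by DESeq2 and 0 at an unadjusted p under 0.05. HSP90AA1 had 7783, 7827 and 7435 CPM in OE, against 8053, 7656 and 7094 CPM in OE_NC, a log2 difference of 0.015 whose sign flipped under other scalings. HSP90AB1 had 5715, 5751 and 5604 CPM in OE, against 6330, 5783 and 5354 CPM in OE_NC, a log2 difference of −0.033. Both pairs of groups overlapped, with edgeR adjusted p-values of 0.931 and 0.861. In the HSP70 family 0 of 12 members were called by edgeR, 0 by DESeq2 and 0 at an unadjusted p under 0.05. HSPA1A had 368, 384 and 383 CPM in OE, against 420, 394 and 381 CPM in OE_NC (log2 difference −0.074, edgeR adjusted p = 0.591).

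DNAJB6, which keeps aggregation-prone proteins soluble, was widely spread among OE libraries. It had 396, 155 and 115 CPM in OE, against 352, 269 and 300 CPM in OE_NC. The groups overlapped because of OE library 1, the highest of these 6. The log2 difference was −0.47 with an edgeR adjusted p of 0.368, and without OE library 1 it was −1.20 with an edgeR adjusted p of 0.000501. In the interference assay DNAJB6 had 376, 355 and 390 CPM in si, against 465, 458 and 466 CPM in si_NC. Those groups did not overlap, but the wide spread in OE enters the shared dispersion of the fit, and the difference of −0.31 had an edgeR adjusted p of 0.62. It was −0.36 without both libraries that stood apart (edgeR adjusted p = 0.601).

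The changes of the assays were then set against each other by a test of their difference (si minus si_NC, less OE minus OE_NC). It was called for 8 of 60 members, against 8.41 percent of all tested genes, with 1 difference positive and 7 negative, against 4.12 and 4.29 percent. At an unadjusted p under 0.05 there were 23 members (38.3 percent), against 24.4 percent of all tested genes. With library totals as the scaling, 5 differences were positive and 3 negative, against 7.79 and 1.63 percent of all tested genes, and the median of all genes moved by 0.135. With the length offset 0 were positive and 15 negative, against 2.75 and 8.38 percent. Without both libraries that stood apart 3 were positive and 13 negative, against 6.72 and 7.07 percent.

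DNAJC1, DNAJC13 and DNAJC21 carried the firmest differences, called in each of the 12 fits that left out a library. DNAJC1, the ER membrane J protein, fell in si and rose in OE, with a difference of −0.58 ± 0.10 SE (edgeR adjusted p = 0.00363). The endosomal DNAJC13 had a difference of −0.56 ± 0.10 SE (edgeR adjusted p = 0.00454). The ribosome factor DNAJC21, at 703, 691 and 700 CPM in OE, against 689, 621 and 593 CPM in OE_NC, had a difference of −0.64 ± 0.14 SE (edgeR adjusted p = 0.014).

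The other 5 depended more on single libraries. The luminal ER cochaperone DNAJC3 had a difference of −0.48 ± 0.11 SE (edgeR adjusted p = 0.0171), called in 8 of the 12 fits without a library. DNAJA1, with 302, 291 and 298 CPM in OE, against 296, 267 and 268 CPM in OE_NC, had a difference of −0.41 ± 0.10 SE (edgeR adjusted p = 0.0198), called in 7. The ER cochaperone DNAJB11, with 222, 228 and 219 CPM in OE, against 220, 197 and 191 CPM in OE_NC, had a difference of −0.38 ± 0.11 SE (edgeR adjusted p = 0.0391), called in 3. Of the ER J proteins, 3 of 7 were thus called, all negative, against 4.29 percent of all tested genes with a negative call. DNAJB4 had a difference of −0.33 ± 0.10 SE (edgeR adjusted p = 0.0467), called in 1. The small heat shock gene HSPB1 was the positive call, at 0.63 ± 0.15 SE (edgeR adjusted p = 0.0209), called in 7, and with the length offset it was 0.25 and not called.

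For the HSP90 genes, HSPA1A and DNAJB1 the assays were not shown to differ. The differences were 0.35 for HSP90AA1, −0.33 for HSP90AB1, −0.27 for HSPA1A and 0.38 for DNAJB1, with edgeR adjusted p-values of 0.0673, 0.119, 0.129 and 0.0559. Without both libraries that stood apart, HSP90AB1 (−0.40, edgeR adjusted p = 0.0201) and DNAJB1 (0.37, edgeR adjusted p = 0.0271) were called, and the call of DNAJB4 was lost.

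**Figure D4:**
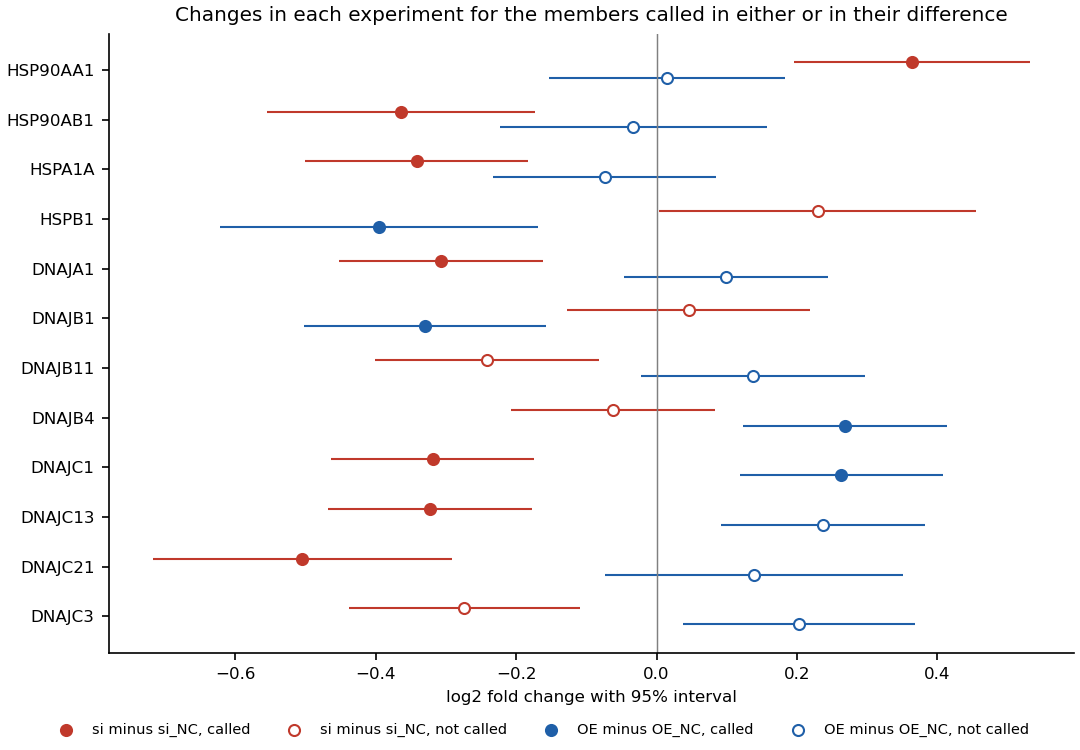
Log2 change with 95% interval for the 12 members called in either assay or in the difference, for si minus si_NC (red) and OE minus OE_NC (blue), with filled points for an edgeR adjusted p under 0.05. DNAJC1 is filled on both sides of 0, at −0.32 in si and 0.26 in OE.

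The negative controls of the assays were also compared with each other. OE_NC against si_NC differed in 21 of 60 tested members, against 19.7 percent of all tested genes, with 5 higher and 16 lower in OE_NC, against 9.49 and 10.2 percent. At an unadjusted p under 0.05 there were 29 members (48.3 percent), against 34.1 percent of all tested genes. With library totals 9 were higher and 13 lower, against 14.1 and 5.79 percent of all tested genes. With the length offset 4 were higher and 24 lower, against 6.27 and 17 percent. Leaving out a library gave 15 to 21 calls, against 11.3 to 16.9 percent of all tested genes, and leaving out si_NC library 2 with si library 3 gave 27, against 23.5 percent. The kind of nucleic acid, the transfection and any batch cannot be told apart here. This contrast and si minus si_NC share the si_NC libraries.

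Of the 7 ER J proteins, 4 were called lower in OE_NC, against 10.2 percent of all tested genes. DNAJB11 had 220, 197 and 191 CPM in OE_NC, against 346, 312 and 334 CPM in si_NC, a log2 change of −0.71 ± 0.08 SE (edgeR adjusted p = 6.24e-05). DNAJC3 had 118, 112 and 114 CPM in OE_NC, against 166, 163 and 157 CPM in si_NC, a log2 change of −0.50 (edgeR adjusted p = 0.000863). DNAJC10 and DNAJC1 also fell, with log2 changes of −0.28 and −0.23 (edgeR adjusted p = 0.0222 and 0.0263). They were called in 2 and 3 of the 6 fits that left out a library. DNAJB9, DNAJB12 and DNAJB14 were not called, with negative differences too.

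All 3 HSP110-type exchange factors were called lower, against 10.2 percent of all tested genes in this contrast. HSPH1 had 124, 117 and 123 CPM in OE_NC, against 182, 151 and 165 CPM in si_NC (log2 change −0.45, edgeR adjusted p = 0.00104). HSPA4 was at 735, 716 and 704 CPM in OE_NC, against 935, 820 and 888 CPM in si_NC (−0.29, edgeR adjusted p = 0.00493). HSPA4L changed by −0.46 (edgeR adjusted p = 0.0365), and was called in 1 of the 6 fits that left out a library. HSPA1A and the HSP70 partner DNAJA1 were lower too, with log2 changes of −0.36 and −0.44 (edgeR adjusted p = 0.00451 and 0.000854), and so was the distant HSP70 relative HSPA12A, at −0.48 (edgeR adjusted p = 0.000788).

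HSP90AB1 changed by −0.39 and HSP90AA1 by 0.28 in OE_NC against si_NC (edgeR adjusted p = 0.00788 and 0.0207), beside −0.36 and 0.36 in si against the same si_NC libraries. Between the controls, HSP90AB1 was called in each of the 6 fits that left out a library and HSP90AA1 in 2. The remaining falls were DNAJC27 (−0.59), DNAJC25 (−0.45), DNAJC16 (−0.43), DNAJA4 (−0.43) and HSPD1 (−0.40), with edgeR adjusted p-values of 0.011, 0.00499, 0.0128, 0.00637 and 0.00386. Of the 6 fits that left out a library, DNAJC27 was called in 5, DNAJC16 in 4 and the others in each. HSPA4L, HSPA12A, DNAJC16, and of the members above DNAJB12, DNAJB14 and DNAJC17, share exon bases with a gene on the other strand. Whether counting used strand is not given in the sources used here.

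Among the rises was HSPA6, which in human cells is nearly silent without stress. It had 2.78, 1.87 and 1.83 CPM in OE_NC, against 0.392, 0.211 and 0.868 CPM in si_NC, while it ranged over 1.42 to 1.77 CPM in OE and 0.385 to 0.598 CPM in si. The 6 plasmid-transfected libraries thus all lay above the 6 libraries of the interference assay, at low levels. The log2 change of OE_NC against si_NC was 2.12 ± 0.36 SE with an edgeR adjusted p of 0.00143. The mitochondrial DNAJA3 and HSPA9 were higher in OE_NC by 0.43 and 0.24 (edgeR adjusted p = 0.00766 and 0.0185), and HSPB11, an intraflagellar transport protein, by 0.51 (edgeR adjusted p = 0.0365). DNAJA3 was called in each of the 6 fits that left out a library, HSPA9 in 3 and HSPB11 in 1.

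**Figure D5:**
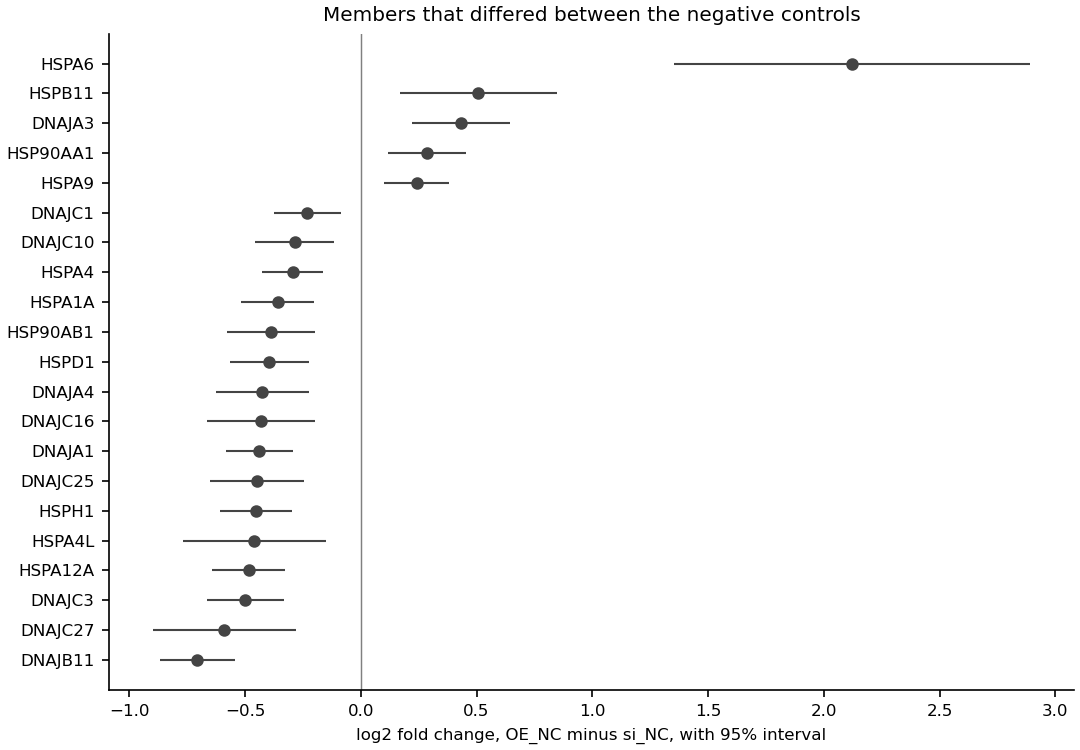
Log2 change of OE_NC minus si_NC with 95% interval for the 21 members called in this contrast. Of these, 16 lie below 0, the lowest DNAJB11 at −0.71, and 5 above, the highest HSPA6 at 2.12.

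Each group was finally set against the other 9 libraries. In 11 of the 60 tested members (18.3 percent) the 3 si_NC libraries lay above the other 9, against 3.96 percent of all tested genes. These were HSP90AB1, HSPA1A, HSPA4L, HSPA12A, HSPH1, DNAJA1, DNAJB6, DNAJB11, DNAJC3, DNAJC25 and DNAJC27. In 1 member, HSP90AA1, they lay below the other 9, against 2.69 percent. The si libraries lay below the other 9 in 3 members (DNAJC2, DNAJC13 and DNAJC21), against 2.21 percent, and above in 0, against 2.18 percent. The OE libraries lay above in 3 members (DNAJB4, DNAJB12 and DNAJC13), against 5.1 percent, and below in 5 (HSPA4, HSPB1, HSPD1, HSPE1 and DNAJC5), against 3.42 percent. The OE_NC libraries lay above in 3 members (DNAJB1, HSPA6 and HSPB8), against 3.72 percent, and below in 2 (DNAJA4 and DNAJC3), against 3.74 percent.

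Regulators and partners outside the symbol rule were examined as lists. Of the heat shock factors and their regulators, 6 of 7 were tested. HSF1, the main activator of heat shock genes, averaged 23.7 CPM. In si against si_NC 0 of these 6 were called by edgeR, 1 had an unadjusted p under 0.05 and 0 were called by DESeq2, and in OE against OE_NC IER5L, a relative of the HSF1 activator IER5, fell (log2 change −0.90, edgeR adjusted p = 0.00347). Of 11 HSP70 exchange factors and partners, BAG1, an exchange factor, and ST13, which links HSP70 and HSP90, fell in si (log2 changes −0.30 and −0.25, edgeR adjusted p = 0.0397 and 0.0353), with a list median of −0.25. Against the same si_NC libraries, BAG1 was also lower in OE_NC (log2 change −0.37, edgeR adjusted p = 0.00306). ST13 was not called there (−0.16, edgeR adjusted p = 0.0617). In OE 0 of the 11 were called by edgeR, 2 had an unadjusted p under 0.05 and DESeq2 called 2. Of 18 HSP90 cochaperones, 0 were called in si by edgeR, 6 had an unadjusted p under 0.05 and DESeq2 called 4, with a list median of −0.16. In OE the HSP90 ATPase activator AHSA1 and the cochaperone SUGT1 fell (log2 changes −0.40 and −0.31, edgeR adjusted p = 0.0455 and 0.047). Over all tested genes in si, edgeR called 2.54 percent, 18.9 percent had an unadjusted p under 0.05 and DESeq2 called 8.56 percent. The median over all tested genes in si was 0.025. In OE these 3 shares were 4.47, 22.9 and 10.7 percent.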

How the data were processed

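Per the labels' protocols, libraries were stranded and made from polyadenylated RNA. The authors deposited raw counts for each gene. The submitters' notes list fastp 0.23.0 and Subread 1.5.1 with featureCounts. The aligner, the build, the strand setting and the handling of multiply mapping reads are not given there. The deposited RPKM equalled counts over exon length and library total within a relative 5.3e-15. Groups came from the sample titles, with 0 value columns unmapped. The 2 entries naming no gene (0.0868 to 0.116 percent of counts) were left out.

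Members, lists and role groups were chosen with earlier results of these data known. Described one by one were members called in any contrast and the 2 highest by RPKM in each family (32 in all). DNAJB6, HSPB2, HSPE1, DNAJC2 and other uncalled members were named after their values were seen. RefSeq gene names matched 68 of the 69 symbols; sequences were not used here.

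The counts were tested in R 4.3.3 with edgeR 4.0.16: TMM scaling, filterByExpr (minimum count 10, total 15), and a quasi-likelihood F test in 1 fit over the 12 libraries, with 1 mean for each group and 8 residual degrees of freedom. Benjamini-Hochberg adjustment covered 16300 genes, with a threshold of 0.05. A standard error is the log2 change over the root of F. CPM carry TMM scaling. The procedure was tested on simulated data. Alternatives included limma 3.58.1 on log2 RPKM and DESeq2 1.42.0; another was chosen after seeing the data.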

Additional observations from a re-analysis of the deposited data

Results flagged for a closer look

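For 8 members the change in si against si_NC differed from the change in OE against OE_NC by the test of the difference itself (edgeR, Benjamini-Hochberg adjusted p under 0.05; 8.41 percent of all tested genes). The difference was negative on the log2 scale for the ribosome factor DNAJC21 (−0.64), the ER membrane protein DNAJC1 (−0.58), the endosomal DNAJC13 (−0.56), the ER cochaperones DNAJC3 (−0.48) and DNAJB11 (−0.38), and the cytosolic DNAJA1 (−0.41) and DNAJB4 (−0.33). It was positive for the small heat shock gene HSPB1 (0.63). No group has more than 3 libraries, so outlying libraries were not tested for.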

How the results depend on the processing

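Counts of called members were 7 in si, 4 in OE, 8 in the difference and 21 between the controls. The si count was 2 with library totals, 13 with DESeq2's Wald test, 15 with no filter on low counts, 16 with the exon length offset, and 1 and 1 with limma on log2 RPKM plus 1 or plus 0.1. It was 0 in an edgeR fit of only the groups compared, where 21 members had an unadjusted p under 0.05, and 14 without si library 3 and si_NC library 2. With a filter of at least 5 CPM in 3 libraries it was 6 of 52 tested members, against 5.1 percent of all tested genes. The OE count was 8 with DESeq2, 2 and 2 with limma and 2 with the length offset. The difference count was 13 with no filter, 15 with the length offset and 16 without both libraries. Leaving out each library gave 0 to 15 in si, 0 to 4 in OE, 3 to 11 in the difference and 15 to 21 between the controls. The share of all tested genes called moved as well. In si it was 2.54 percent, and 2.48 with library totals, 8.56 with DESeq2, 4.13 with no filter, 6.74 with the length offset, 2.02 and 1.99 with limma, 0.0524 with only the groups compared and 6.7 without both libraries. In OE it was 4.47 percent, and 10.7 with DESeq2, 3.75 and 3.21 with limma and 3.33 with the length offset. In the difference it was 8.41 percent, and 6.6 with no filter, 11.1 with the length offset and 13.8 without both libraries. The cause of these moves was not tested. The controls stayed within 18 to 28 under the other settings.

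The log2 difference of HSP90AA1 between OE and OE_NC, 0.015, reversed to −0.041 with library totals, −0.017 with a filter of 5 CPM, −0.039 with both limma fits and −0.00803 with halved counts. Without single libraries it ran from −0.052 to 0.046, and that of HSP90AB1 from −0.11 to 0.018. DNAJC15 in OE reversed to 0.060 with the length offset. Other reversals among the 86 changes followed through all settings were 0. Changes outside these 86 could reverse too. The HSPE1 difference between the assays went from 0.35 to −0.12 with the length offset. With replicate number as a block the counts were 7, 4, 6 and 22. The calls of DNAJC1 in OE (adjusted p = 0.051) and of DNAJB11 and DNAJB4 in the difference (0.0501 and 0.065) were lost, and HSPE1 in OE (0.0469) and HSPA8 between the controls (0.0497) were gained. Same-numbered libraries correlated at −0.26 to 0.092 in si and −0.015 to 0.045 in OE, so no pairing by number was seen. With 3 libraries a group this cannot exclude a pairing. The highest correlation, 0.33, was between si library 3 and si_NC library 2. With 3 libraries a group, changes of about 0.2 on the log2 scale mostly missed the threshold, and low members such as HSPA6 and HSPB2 rest on few reads.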
